A study of Mus musculus with 6 samples.

Results

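The Gimap genes encode the GTPases of immunity-associated proteins. The 8 members listed in the expression matrix were Gimap1, Gimap3, Gimap4, Gimap5, Gimap6, Gimap7, Gimap8 and Gimap9. They were chosen by symbol, as 8 of 31053 genes measured, by a rule that used none of their values. Earlier results of these data were known at that point. RNA and surface antibodies were counted together in single splenocytes (CITE-seq) of male C57BL/6 mice that received PF4, a platelet chemokine, at 20 months of age, or saline at 20 or at 3 months. Labels give a PF4 solution of 5 µg/mL and 100 µL per dose, as 8 injections across 24 days, and the spleens of 5 mice of a group were pooled into 1 RNA library and its antibody library. No source ties the 3 barcode suffixes of the joint matrix to these 3 groups, so the suffixes are called library 1, library 2 and library 3 here, no treatment or age is compared, and there is no replicate of any group. Intervals given below are exact 95% intervals (Poisson for counts, Clopper-Pearson for shares) and cover counting error only.

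Cells with 300 to 5000 genes and at most 10% mitochondrial UMIs were kept, which left 20161 of 29005 barcodes, with 4199, 7511 and 8451 in library 1, library 2 and library 3. Median depth was 3741, 3625 and 3765 RNA UMIs per cell, and 68 barcode sequences occurred in more than 1 library. All 8 members were detected. Together they held 164863 of 88000761 UMIs, or 0.187% of the RNA counted, which is 1873 CPM (counts scaled per 1e6 UMIs). Cell groups are clusters named from marker genes, with the ending "-like", and the Gimap genes were left out of the genes that formed the clusters. Levels are CPM of the UMIs summed over the cells of a group. A UMI stands for 1 molecule read near its 3′ end, so values were not divided by gene length. Gimap3 and Gimap5 are close paralogs, and the rule by which reads matching both were assigned was not stated in any source read.

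GIMAP proteins are membrane-associated or cytosolic GTPases that are found mainly in lymphocytes and are best known for their part in lymphocyte survival. Rodents without functional Gimap5 lose peripheral T cells, and Gimap1 is needed for mature T and B cells in mice. Gimap3 and Gimap5 were reported to bind proteins of the Bcl2 family, Gimap6 binds the autophagy protein Gabarapl2, Gimap4 was linked to T cell apoptosis, Gimap8 to the survival of B cells, and Gimap7 hydrolyses GTP as a dimer. In the spleen, naive, memory, regulatory and follicular helper T cells, natural killer (NK) cells and B cells lie beside myeloid cells, so the organ allows these genes to be read across most mature lymphocytes at once.

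The 8 members lay in 1 cluster on mouse chromosome 6 (GRCm38, positions 48647234 to 48770851, 123.618 kb), in the order Gimap8 (ENSMUSG00000064262, 48647234 to 48660875), Gimap9 (ENSMUSG00000051124, 48676129 to 48679114), Gimap4 (ENSMUSG00000054435, 48684549 to 48692060), Gimap6 (ENSMUSG00000047867, 48701582 to 48708225), Gimap7 (ENSMUSG00000043931, 48718621 to 48724636), Gimap1 (ENSMUSG00000090019, 48739054 to 48743795), Gimap5 (ENSMUSG00000043505, 48746197 to 48754210) and Gimap3 (ENSMUSG00000039264, 48764464 to 48770851). Gimap6 and Gimap3 are on the minus strand and the other 6 on the plus strand. A long intergenic RNA gene, 4833403J16Rik, starts 1127 bases past the end of Gimap5. The readthrough gene Gm28053 shares 81, 198 and 153 exonic bases with Gimap7, Gimap1 and Gimap5 but none of the last 1000 exonic bases that a 3′ library mainly samples, and it was counted at 7.41 CPM in T-like cells and 10.6 CPM in B-like cells. Gimap1os, on the opposite strand, covers 36.0% of the Gimap1 exons and likewise 0% of those last bases.

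Start regions are shown for 4 members whose levels the results below turn on: Gimap3 and Gimap4, higher in T-like than in B-like cells, Gimap1, which had its highest class level in B-like cells, and Gimap7, which varied most among T-like subsets. Each is 300 bases of chromosome 6 from RefSeq on GRCm38.p6, 250 bases before to 50 after the annotated start, written 5′ to 3′ on the gene's strand, at chr6:48770802-48771101 (minus), chr6:48684328-48684627 (plus), chr6:48738797-48739096 (plus) and chr6:48718371-48718670 (plus). Capitals mark 5 motifs, each searched on both strands as written and as its reverse complement. The ETS factors' letters were taken as AGGAAG. Those of the RUNX factors were taken as TGTGGT. For FOXO factors, known for quiescent lymphocytes, they were GTAAACA. The GC box of Sp1 was searched as GGGCGG. The TATA box was searched as TATAAA.
Gimap3: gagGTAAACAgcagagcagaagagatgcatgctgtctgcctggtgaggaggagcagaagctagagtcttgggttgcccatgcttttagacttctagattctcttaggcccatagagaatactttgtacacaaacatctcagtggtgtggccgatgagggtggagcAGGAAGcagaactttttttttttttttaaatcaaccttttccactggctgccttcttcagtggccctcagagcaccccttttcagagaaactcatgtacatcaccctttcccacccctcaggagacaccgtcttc
Gimap4: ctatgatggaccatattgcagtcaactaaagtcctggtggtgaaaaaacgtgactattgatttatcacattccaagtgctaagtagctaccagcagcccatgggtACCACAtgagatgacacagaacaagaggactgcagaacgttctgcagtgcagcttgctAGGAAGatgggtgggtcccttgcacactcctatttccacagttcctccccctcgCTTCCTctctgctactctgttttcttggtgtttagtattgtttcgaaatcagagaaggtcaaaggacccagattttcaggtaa
Gimap1: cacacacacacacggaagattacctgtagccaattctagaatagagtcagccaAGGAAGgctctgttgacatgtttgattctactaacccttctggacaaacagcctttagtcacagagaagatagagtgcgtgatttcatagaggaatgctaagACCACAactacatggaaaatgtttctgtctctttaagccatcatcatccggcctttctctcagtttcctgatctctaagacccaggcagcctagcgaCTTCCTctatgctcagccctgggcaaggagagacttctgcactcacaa
Gimap7: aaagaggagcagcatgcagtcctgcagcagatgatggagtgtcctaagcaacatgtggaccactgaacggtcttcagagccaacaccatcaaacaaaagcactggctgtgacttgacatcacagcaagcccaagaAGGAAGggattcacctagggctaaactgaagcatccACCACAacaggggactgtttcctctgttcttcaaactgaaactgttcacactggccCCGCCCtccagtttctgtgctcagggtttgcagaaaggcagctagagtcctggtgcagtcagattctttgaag
The ETS letters were in 7 of 9 start regions of the family (Gimap8 has 2 annotated starts), against 35.4% of 32851 mouse start regions of that length. RUNX letters were in 3 (Gimap1, Gimap4 and Gimap7), against 16.8%, and FOXO letters in 1 (Gimap3), against 3.65%. The GC box was in 2 (Gimap7 and Gimap9), against 35.7%, and the TATA box in 1 (Gimap6), against 13.6%. No marked motif overlapped another. A match is a description of the letters and not evidence of binding.

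Among the cell classes, NK-like cells had the highest summed level of the family, T-like cells the next and B-like cells the third. The sum was 2964, 2369 and 2381 CPM in T-like cells (967, 1943 and 2120 cells), against 2166, 2024 and 1956 CPM in B-like cells (1818, 4357 and 4600 cells). The lowest T-like value lay above the highest B-like value. The classes differed in which members made up the sum. Gimap3 was at 699, 584 and 607 CPM in T-like cells, against 273, 245 and 236 CPM in B-like cells. Gimap4 was at 631, 492 and 463 CPM in T-like cells, against 343, 278 and 257 CPM in B-like cells. Both were clear of the B-like range in every library. Gimap1 went the other way, with 342, 287 and 308 CPM in T-like cells, against 479, 485 and 479.6 CPM in B-like cells.

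A gene was called higher or lower where its CPM ratio was at least 1.5-fold in the same direction in each of the 3 libraries, among genes at 10 CPM or more in either class. There is no test behind a call. For T-like over B-like cells, 2 of 8 members were called higher and 0 lower, where 10.5% of 8388 genes were called higher and 13.3% lower. They were Gimap3, with ratios of 2.56, 2.38 and 2.57, and Gimap4, with 1.84, 1.77 and 1.80. Gimap1 had ratios of 0.714, 0.592 and 0.643 and missed the rule for a lower call in library 1. The other 5 members had geometric mean ratios between 0.974 (Gimap5) and 1.30 (Gimap9). The median log2 ratio of the members was 0.16, against −0.10 over all genes compared.

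**Figure D1:**
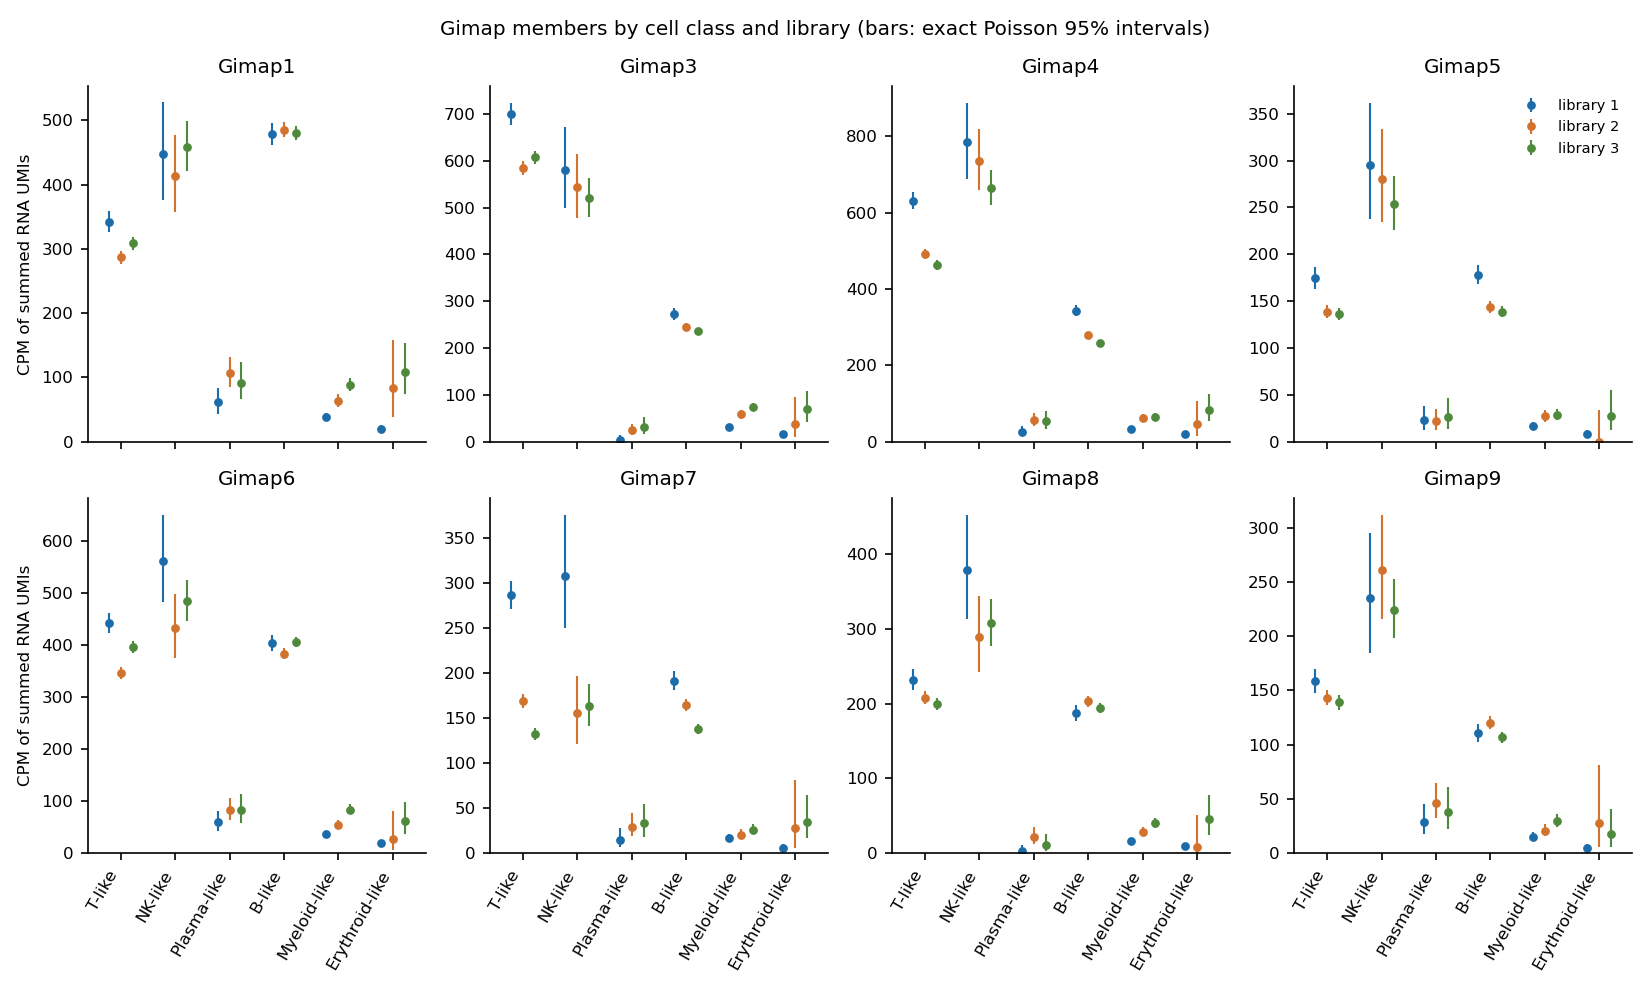
CPM of each Gimap member (y axis, linear, from 0) in 6 cell classes, with 1 point per library and exact Poisson 95% intervals as bars. Gimap3 and Gimap4 are above the B-like points in T-like and NK-like cells, Gimap1 is lowest of the lymphocyte classes in T-like cells, and plasma-like, myeloid-like and erythroid-like points are low for every member.

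NK-like cells (69, 121 and 303 cells) carried 3589, 3113 and 3077 CPM of family RNA. Gimap4 was at 784, 736 and 665 CPM there, Gimap5 at 295, 280.4 and 253 CPM, and Gimap9 at 235, 261 and 225 CPM. Every one of these values was above the T-like and B-like values of the same library. For NK-like over B-like cells, 4 of 8 members (Gimap3, Gimap4, Gimap5 and Gimap9) were called higher and 0 lower, against 14% and 7.89% of all genes compared. Gimap8 had ratios of 2.02, 1.42 and 1.58 and missed the rule in library 2. For T-like over NK-like cells, 0 members were called higher and 1 lower, against 3.73% and 11.2% of genes. That member was Gimap5, with ratios of 0.591, 0.494 and 0.537, and 6 of 8 members had ratios below 1 in every library (5 with TMM scaling, which sets most genes to no change). The Gimap5 call is lost with TMM or DESeq2 scaling, where 0 members are called, and without library 1 or library 2 the count is 2. Gimap3 was the 1 member with ratios above 1 in each, at 699, 584 and 607 CPM in T-like cells, against 581, 543 and 521 CPM in NK-like cells. CPM is a share of a cell's RNA, and T-like cells had a median of 5255 UMIs, against 3704 in NK-like cells. Counted per cell, the family had 13.5 UMIs in T-like cells and 12.8 in NK-like cells. Cd79a, a B cell gene, was at 306 CPM in NK-like cells, against 64.8 CPM in T-like cells and 2918 CPM in B-like cells, and the part of B cell RNA in the NK-like values was not tested.

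Plasma-like cells, the antibody-secreting end of the B lineage, had 221, 390.5 and 369 CPM of family RNA, against 2166, 2024 and 1956 CPM in B-like cells. All 8 members were called lower and 0 higher in plasma-like over B-like cells, where 63.3% of genes were called lower and 5.6% higher, so most genes outside the family met the rule as well. The members' median log2 ratio was −2.70, against −1.26 over all genes compared. TMM scaling shifted the members' ratios by a mean of 1.07 on the log2 scale, with all 8 still below 1 in every library. Gimap8 had 3.05, 22.1 and 11.2 CPM in plasma-like cells, against 187, 203 and 194 CPM in B-like cells. By CPM, Gimap9 was the least reduced, at 29, 46.7 and 38 CPM in plasma-like cells, against 111, 120.5 and 107 CPM in B-like cells. Plasma-like cells number 128 in all and had a median of 13920 UMIs, against 3190 in B-like cells. Counted per cell, the family had 3.37, 5.68 and 5.16 UMIs in plasma-like cells, against 7.80, 6.72 and 6.70 in B-like cells. The difference was thus much smaller per cell than in CPM. Immunoglobulin genes such as Ighg2b, Igha and Igkc were among their leading genes, and the immunoglobulin share of their UMIs was not computed.

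All 8 members were called higher in T-like over myeloid-like cells and 0 lower, against 13.9% and 21% of genes. The sum in myeloid-like cells was 208, 336 and 438 CPM. Macrophage-like cells stood apart within that class with 827, 866 and 1112 CPM. The B cell gene Cd79a was at 907, 895 and 1131 CPM in them, against 165 CPM in monocyte-like and 134 CPM in dendritic-like cells pooled over libraries. The family sum was 149, 257 and 354 CPM in monocyte-like cells, 96.8, 169 and 294 CPM in dendritic-like cells and 111, 573 and 635 CPM in neutrophil-like cells. Erythroid-like cells, which should lack lymphocyte genes, had 105, 259 and 451 CPM in 409, 20 and 51 cells. The pooled sums of the plasma-like, plasmacytoid-like, neutrophil-like and monocyte-like classes were 326, 310, 271 and 257 CPM. Each interval overlapped that of the next class, so the order within each adjacent pair is not resolved. Pairs further apart in that order were not compared. From library 1 to library 3, Cd79a rose with the family in myeloid-like, neutrophil-like and dendritic-like cells. It was at 205, 268 and 300 CPM in myeloid-like cells and 101, 439 and 485 CPM in neutrophil-like cells. In monocyte-like cells Cd79a was at 124.5, 197.4 and 172.8 CPM, and in erythroid-like cells at 115.5, 434.8 and 297.4 CPM. There Cd79a was highest in library 2 and the family in library 3. The part of free lymphocyte RNA in these low family values was not tested.

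**Figure D2:**
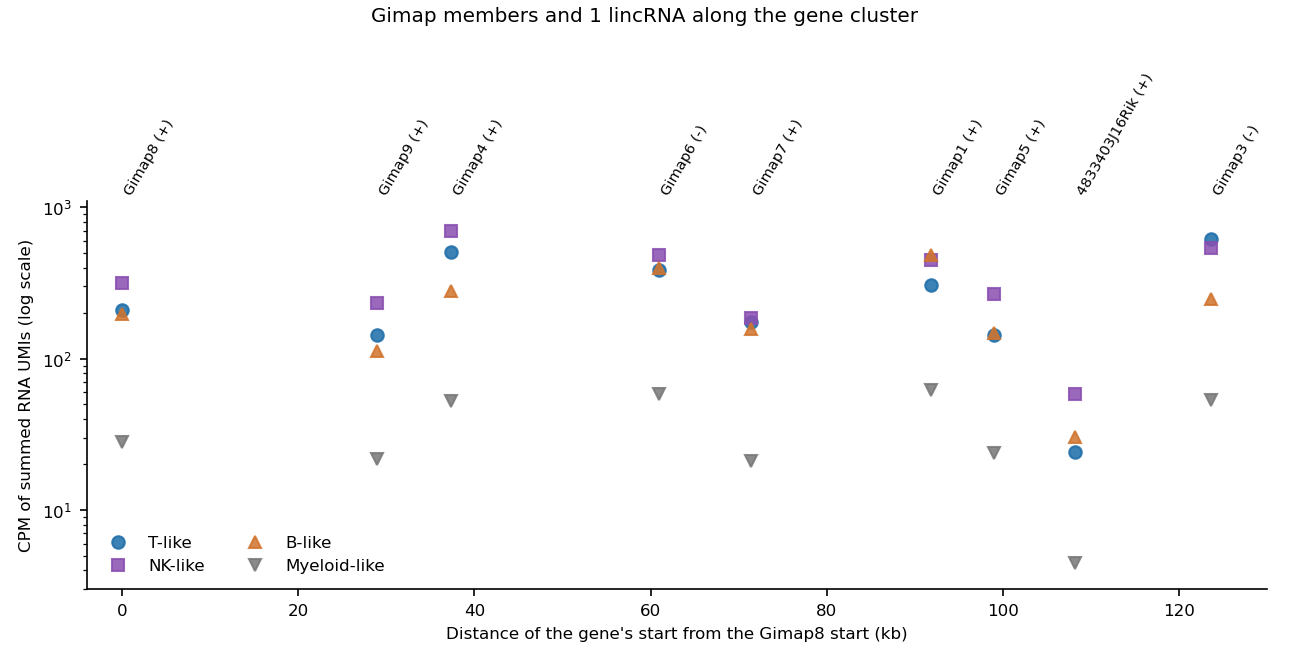
Pooled CPM (log y axis) of the 8 members and the long intergenic RNA gene 4833403J16Rik in 4 cell classes, placed by the distance of each gene's start from the Gimap8 start in kb, with the strand beside each name. Myeloid-like values are the lowest at each of the 9 genes, and the order of T-like and B-like values changes from gene to gene along the cluster.

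Few neighbouring genes were detected at a comparable level. Of 21 other genes of the matrix that start within 200 kb of the outermost members, 3 reached 50 CPM in some cell group. Tmem176b, a membrane protein gene, was at 416 CPM in dendritic-like, 252 CPM in monocyte-like, 233 CPM in plasma-like and 3.33 CPM in neutrophil-like cells. It was at 15.4 CPM in T-like cells and 5.20 CPM in B-like cells. Tmem176a was likewise highest in dendritic-like cells at 348 CPM, and was at 211 CPM in plasma-like cells. 4833403J16Rik was at 24.1 CPM in T-like, 58.4 CPM in NK-like, 30.5 CPM in B-like and 4.49 CPM in myeloid-like cells.

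Each member's share of all family UMIs gives the make-up of the family with total level set aside. Gimap3 held 24.8% (24.4 to 25.1%) of family UMIs in T-like cells, 16.9% (15.99 to 17.85%) in NK-like cells and 12.2% (11.95 to 12.42%) in B-like cells. Gimap1 held 12.3% (12.1 to 12.6%) in T-like cells, 14.1% (13.26 to 14.99%) in NK-like cells and 23.8% (23.5 to 24.1%) in B-like cells. Gimap4 held 20.3% (20.0 to 20.7%) in T-like, 22.1% (21.1 to 23.2%) in NK-like and 13.9% (13.7 to 14.2%) in B-like cells. For Gimap3 the share in neutrophil-like cells, 16.9% (14.3 to 19.8%), and in erythroid-like cells, 15.5% (12.2 to 19.1%), lay between those of T-like and B-like cells.

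**Figure D3:**
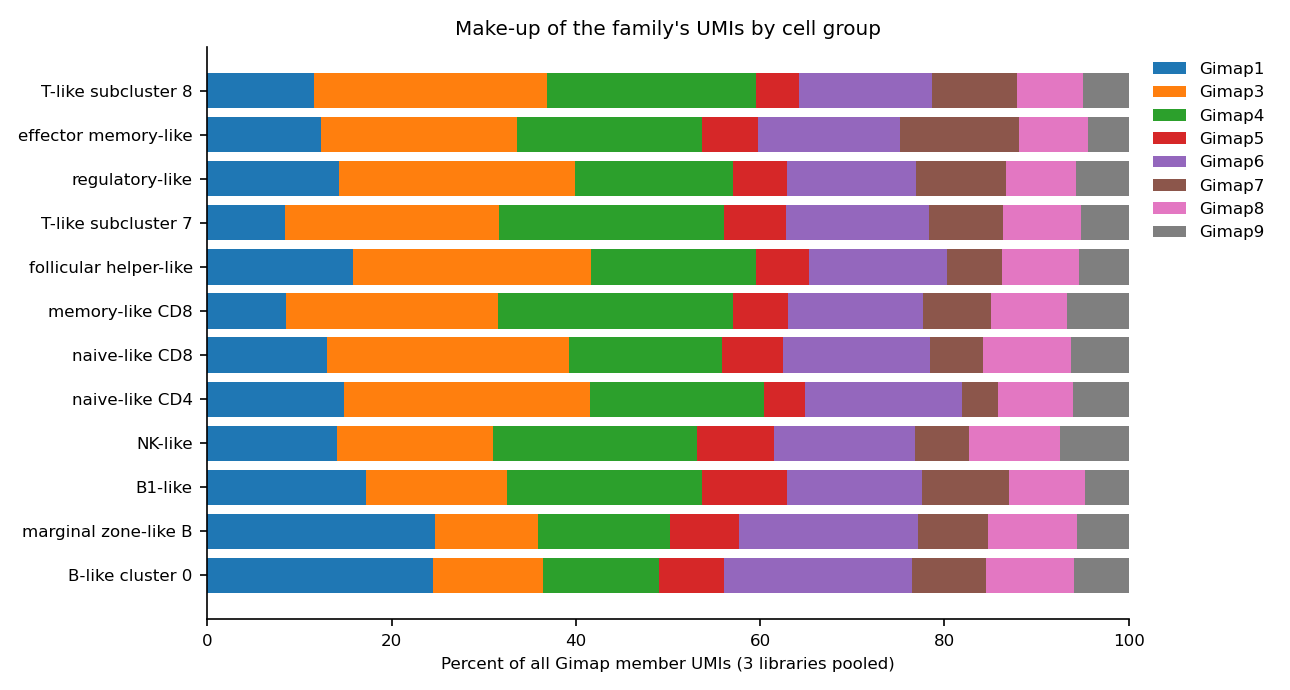
Stacked bars of each member's percent of all Gimap UMIs (x axis, 0 to 100) in 6 named T-like subsets, T-like subclusters 7 and 8, NK-like cells and 3 B-like groups, libraries pooled. The Gimap1 segment is widest in the B-like groups, at 24.5% in B-like cluster 0, and the Gimap7 segment is widest in effector memory-like cells, at 12.9%.

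Among the T-like groups measured, the family was highest in subcluster 8, next highest in effector memory-like and regulatory-like cells, and lowest in naive-like CD8 cells. Subclusters 7 and 8 are T-like clusters left unnamed by the rule on NK receptor genes, which was set after the clusters were seen. By score alone, subcluster 7 met the naming limits for the gamma delta T list (1.53, against 0.167 for the next list). Subcluster 8 did not have the lead (2.02 for the gamma delta T list, against 1.99 for the NKT list). Subcluster 7 (250 cells) was led by Trdc, a gamma delta T cell receptor gene, together with NK receptor genes such as Klra7 and Klre1. Subcluster 8 (163 cells) was led by Atp8a2, Mmp9, Tmem176b and Cxcr6, and Klrb1c was among its 10 leading genes. The sum was 4754, 4218 and 4853 CPM in subcluster 8, 3769, 3829.8 and 4278 CPM in effector memory-like cells (202, 122 and 18 cells) and 4482, 3961 and 3258 CPM in regulatory-like cells (88, 151 and 133 cells). Naive-like CD4 cells had 2442, 2141 and 2306 CPM and naive-like CD8 cells 1901, 1665 and 1862 CPM. The order of effector memory-like and regulatory-like cells was not the same in every library. Memory-like CD8 cells had 2592, 2132 and 2850.0 CPM, subcluster 7 3058, 2799 and 3062 CPM, and follicular helper-like cells 3006, 2819 and 2805 CPM. Depth per cell differed between these groups, with a median of 3428 UMIs in regulatory-like, 3973 in effector memory-like, 4110 in follicular helper-like, 4240 in subcluster 8, 4895 in naive-like CD4, 5651 in subcluster 7, 5767.5 in naive-like CD8 and 7717 in memory-like CD8 cells. Counted per cell without scaling, the family had 19.8 UMIs in subcluster 8, 16.8 in memory-like CD8, 16.7 in subcluster 7, 16.2 in effector memory-like, 14.1 in regulatory-like, 12.2 in follicular helper-like, 11.2 in naive-like CD4 and 10.6 in naive-like CD8 cells. On that scale memory-like CD8 cells and subcluster 7 stood above both effector memory-like and regulatory-like cells, and subcluster 8 and naive-like CD8 cells kept the ends of the order. Subclusters 3 and 10, also unnamed, had pooled sums of 2434 and 2261 CPM, and 16.2 and 12.8 UMIs per cell.

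Gimap7, a GTPase that works as a dimer, varied most. Its pooled level was 494 CPM (459 to 532) in effector memory-like cells and 90.5 CPM (82.6 to 98.9) in naive-like CD4 cells, a ratio of 5.46, where the other 7 members had ratios of highest to lowest named subset from 1.66 (Gimap8) to 2.77 (Gimap1). By library it was at 543, 410.4 and 435 CPM in effector memory-like cells and 559.8, 399 and 240.1 CPM in regulatory-like cells. In subcluster 8 it was at 426, 437 and 426 CPM. It was at 248, 235 and 237 CPM in subcluster 7, at 209, 152 and 177 CPM in memory-like CD8 cells, at 127, 98 and 105 CPM in naive-like CD8 cells and at 136, 88.3 and 84.5 CPM in naive-like CD4 cells. The lowest value of the effector memory-like cells was above the highest value of the other named subsets except the regulatory-like one, and below the 3 values of subcluster 8. Its share of family UMIs was 12.9% (12.1 to 13.8%) in effector memory-like, 9.76% (8.97 to 10.6%) in regulatory-like, 5.81% (5.39 to 6.25%) in naive-like CD8 and 3.98% (3.64 to 4.34%) in naive-like CD4 cells. Per cell, Gimap7 had 2.10 UMIs in effector memory-like and 0.446 in naive-like CD4 cells.

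**Figure D4:**
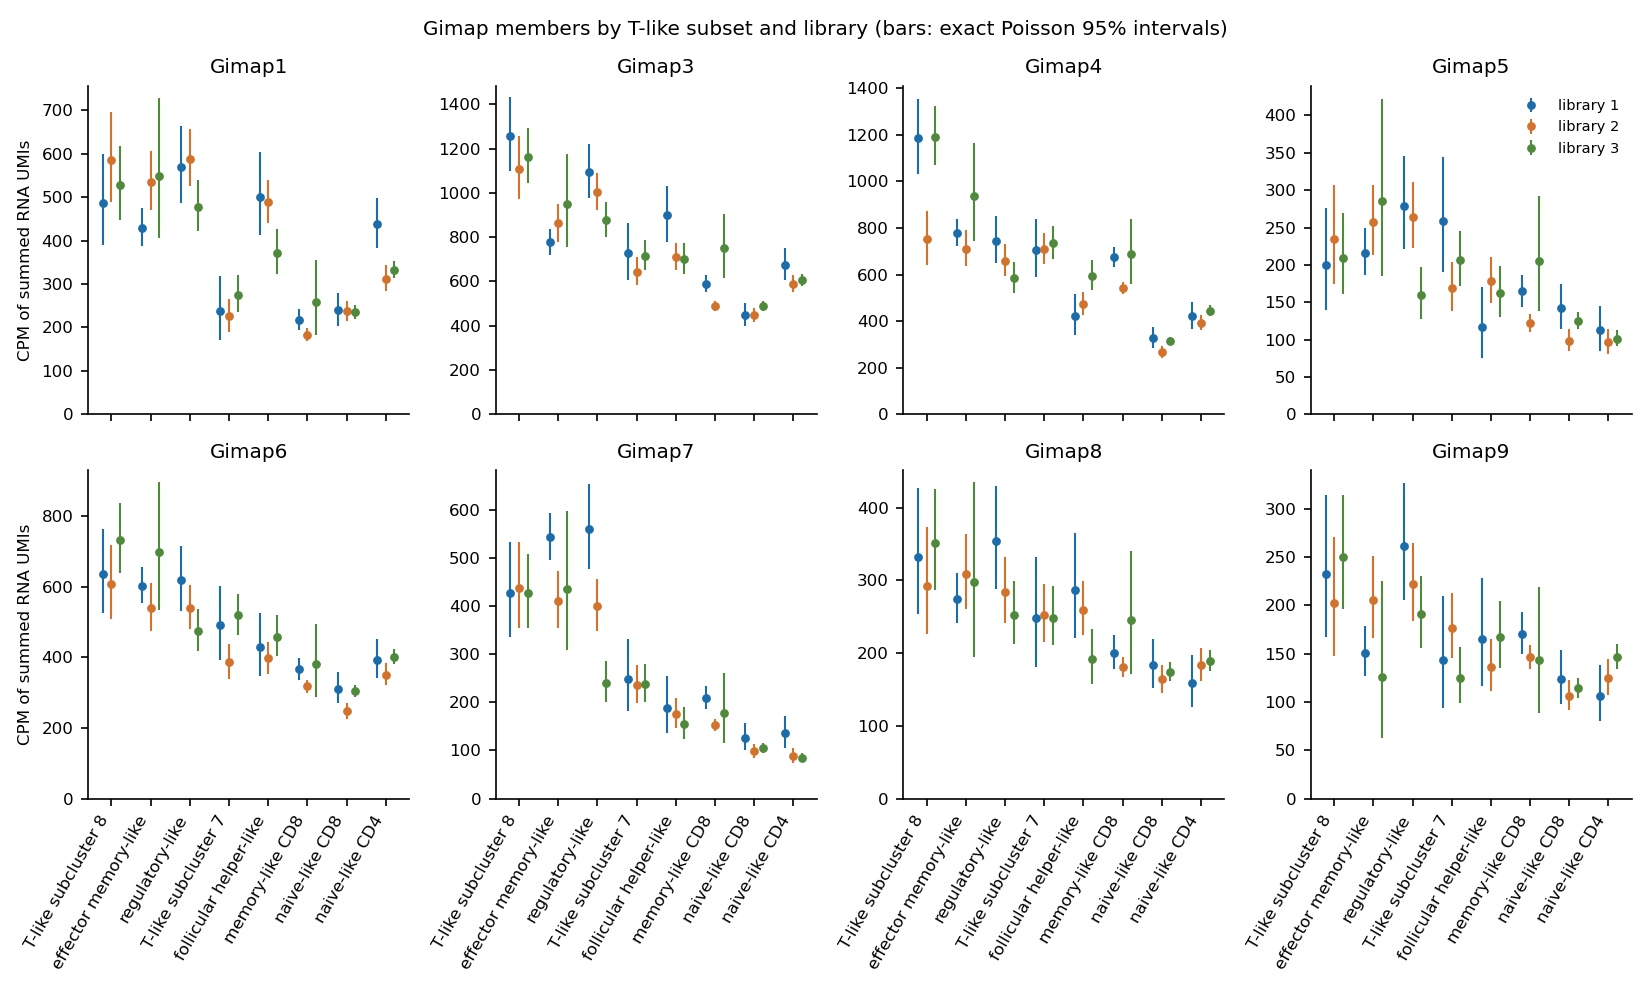
CPM of each Gimap member (y axis, linear, from 0, scaled per panel) in 6 named T-like subsets and subclusters 7 and 8, with 1 point per library and exact Poisson 95% intervals as bars. Gimap7 points are high in subcluster 8, effector memory-like and regulatory-like cells and at most 136 CPM in both naive-like subsets, and Gimap1 points are lowest in memory-like CD8 cells, naive-like CD8 cells and subcluster 7.

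Regulatory-like over naive-like CD4 cells had ratios above 1 in every library for all 8 members (7 with TMM or DESeq2 scaling), and 2 of 8 were called higher and 0 lower, against 14.1% and 1.88% of genes. They were Gimap5, with 278, 264 and 159 CPM in regulatory-like cells, against 112, 96.7 and 101 CPM in naive-like CD4 cells, and Gimap7, with ratios of 4.13, 4.52 and 2.84. The members' median log2 ratio was 0.70, against 0.32 over all genes compared. Library 3 gave the smallest ratio for 7 of the 8 members, and without it 7 of 8 would be called, so the count rests on that library. Only Gimap7 is called with TMM or DESeq2 scaling, or with clusters at resolution 1.2. For follicular helper-like over naive-like CD4 cells, 0 members were called in either direction, against 11.1% of genes higher and 1.74% lower, and Gimap7 came closest with ratios of 1.38, 1.99 and 1.83. Without library 1, Gimap5 and Gimap7 would be called, and with TMM scaling the mean ratios of Gimap3, Gimap4 and Gimap6 turn to just below 1.

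Memory-like over naive-like CD8 cells had 2 of 8 members called higher and 0 lower, against 5.07% and 1.46% of genes. Gimap4, linked to T cell apoptosis, was at 674, 542 and 689 CPM in memory-like CD8 cells, against 327, 267 and 313 CPM in naive-like CD8 cells. Gimap7 had ratios of 1.65, 1.55 and 1.69. Gimap1 did not follow them, with 218, 184 and 259 CPM in memory-like CD8 cells, against 239, 238 and 235 CPM in naive-like CD8 cells. The library 3 value of memory-like CD8 cells comes from 25 cells, and 0 members are called where antibody gates (described below) replace the clusters. With clusters at resolution 1.2 only Gimap4 is called.

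Effector memory-like over naive-like CD8 cells had 6 of 8 members called higher and 0 lower, against 14% and 1.85% of genes, and the 2 others were Gimap8 and Gimap9. Gimap7 ratios were 4.29, 4.19 and 4.15, and Gimap4 ratios 2.38, 2.67 and 2.99. Against memory-like CD8 cells, effector memory-like cells had 3 of 8 members called higher (Gimap1, Gimap6 and Gimap7) and 0 lower, against 7.08% and 1.43% of genes. Gimap1, needed for mature lymphocytes, was at 429.5, 536 and 549 CPM in effector memory-like cells, against 218, 184 and 259 CPM in memory-like CD8 cells. Subcluster 8 over naive-like CD8 cells had 7 of 8 members called higher (all but Gimap5) and 0 lower, against 15.9% and 3.01% of genes. Gimap4 ratios were 3.62, 2.82 and 3.80 there. Subcluster 7 over naive-like CD8 cells had 4 of 8 members called higher (Gimap4, Gimap5, Gimap6 and Gimap7) and 0 lower, against 6.25% and 1.2% of genes, with Gimap4 ratios of 2.16, 2.66 and 2.35. With TMM or DESeq2 scaling 2 are called (Gimap4 and Gimap7). Between the naive-like subsets, CD8 over CD4, 0 members were called, against 2.24% of genes higher and 1.8% lower. Gimap1, Gimap3, Gimap4 and Gimap6 had ratios below 1 there in every library, from 0.546 to 0.809.

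Antibody counts gave another division of T cells that used no RNA. Cells positive for CD8a or CD4 protein were split into CD44 high and CD44 low, CD44 being a surface protein that rises on antigen-experienced T cells. In the CD8 gate 0 members were called for CD44 high over CD44 low, against 2.38% of genes higher and 1.83% lower. Gimap4 was at 661, 543 and 480.1 CPM in CD44 high cells, against 475, 307 and 303 CPM in CD44 low cells, with a ratio of 1.39 in library 1 that missed the rule. In the CD4 gate 0 members were called, against 7.72% and 1.12% of genes, although all 8 had ratios above 1 in every library (2 with TMM or DESeq2 scaling). Gimap7 was at 319, 282 and 207 CPM in CD44 high CD4 cells, against 243, 103 and 89.5 CPM in CD44 low CD4 cells. Library 1 stood apart at Gimap7, with CD44 low values of 243 CPM in the CD4 gate and 276 CPM in the CD8 gate that lay above those of the other libraries. Haemoglobin RNA in library 1 was at 10518 CPM in CD44 high and 1029 CPM in CD44 low CD4 cells. It was at 2075 and 4593 CPM in CD44 high and low CD8 cells, and at most 298 CPM in the other libraries. Its part in the gate values was not tested. The CD44 split, by Ashman's D (distance of component means over their spread), was 2.21, 2.57 and 1.95 in the CD4 gate. In the CD8 gate it was 2.73, 3.99 and 3.52. Gimap7 ratios without library 1 would meet the rule in the CD4 gate, and Gimap4 ratios in the CD8 gate.

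By CPM, B-like groups differed most at cluster 17, a B-like cluster led by the early response genes Egr1, Egr3, Nr4a1 and Myc that no subset list named (322 cells). It had 1296, 1360 and 1372 CPM of family RNA, against 2116, 2089 and 2101 CPM in B-like cluster 0, the largest B-like cluster. Of 8 members 3 were called lower (Gimap1, Gimap3 and Gimap7) and 0 higher, against 4.94% and 8.52% of genes. Gimap1 was at 294, 322 and 297 CPM in cluster 17, against 540.4, 515 and 505 CPM in cluster 0, and Gimap7 at 54.8, 85.9 and 71.0 CPM in cluster 17, against 182, 173 and 155 CPM in cluster 0. With each cell weighted equally 1 member is called (Gimap7). Marginal zone-like B cells had 1836, 1825 and 1672 CPM of family RNA, against the cluster 0 values just given. No member was called, against 1.19% of genes higher and 0.394% lower, and 6 of 8 members had ratios below 1 in every library, from 0.685 to 0.936. B1-like cells had 2372, 2034 and 1749 CPM, and again 0 members were called against cluster 0, beside 4.97% of genes higher and 3.2% lower. Gimap4 was at 503, 433 and 358 CPM in B1-like cells, against 268, 255 and 273 CPM in cluster 0, while Gimap1 was at 379.6, 369.8 and 379.5 CPM in B1-like cells, against 540.4, 515 and 505 CPM in cluster 0. Thus Gimap1 held 17.3% (16.51 to 18.05%) of the family's UMIs in B1-like cells and 24.5% (24.1 to 25.0%) in cluster 0. Library 3 holds 52 B1-like cells. Median depth was 3333 UMIs in cluster 0, 4113.5 in cluster 17, 5111.5 in B1-like and 6083 in marginal zone-like cells. Counted per cell, the family had 7.22 UMIs in cluster 0, 6.04 in cluster 17, 12.1 in B1-like and 11.6 in marginal zone-like cells. On that scale marginal zone-like and B1-like cells stood above cluster 0, and cluster 17 stayed below it.

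Single cells were compared after each was thinned to 1000 UMIs. A UMI of any member was found in 89.8% of T-like cells (88.95 to 90.7%), 94.4% of NK-like cells (91.97 to 96.3%) and 84.8% of B-like cells (84.1 to 85.5%). It was found in 26.0% of plasma-like cells, 19.9% of myeloid-like cells, and in the erythroid-like cells that should lack the genes in 11.3% (8.49 to 14.7%). Median depths were 5255 UMIs in T-like, 3190 in B-like and 5258 in erythroid-like cells. Thinning left out 95 T-like, 25 NK-like and 892 B-like cells, and without it the shares were 99.7%, 99.6% and 97.1%. At least 3 members had a UMI in 59.9% of effector memory-like and 59.3% of regulatory-like cells, against 27.8% of naive-like CD4 and 21.4% of naive-like CD8 cells. Gimap7 was found in 36.8% of effector memory-like and 8.23% of naive-like CD4 cells, and in 0.462% of erythroid-like cells.

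**Figure D5:**
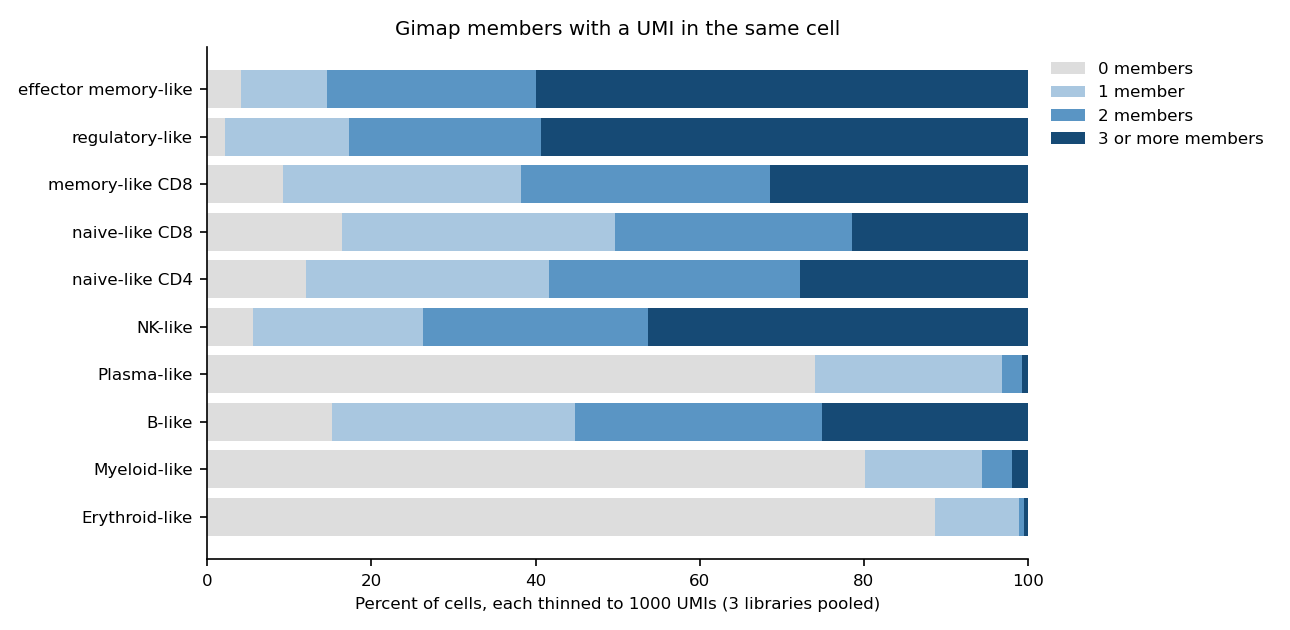
Stacked bars of the percent of cells (x axis, each cell thinned to 1000 UMIs, libraries pooled) with UMIs of 0, 1, 2 or at least 3 Gimap members in 10 cell groups. At least 3 members were found in 59.9% of effector memory-like cells, 25.1% of B-like cells and 0.462% of erythroid-like cells.

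Between libraries, all 8 members were highest in library 1 in T-like cells, and the intervals of the highest and lowest library did not overlap for any of them. The share of all genes with intervals apart was not computed, here or for the subsets and gates below. These counts therefore do not set the family apart from other genes. Among the members, the difference between libraries was largest for Gimap7, with 286, 169 and 132 CPM. The T-like class was not made up alike in the 3 libraries: effector memory-like cells were 20.9%, 6.28% and 0.849% of it, and naive-like CD8 cells 11.6%, 15.3% and 31.4%. With the 6 named subsets weighted equally, the sum was 3032, 2758 and 2893 CPM and Gimap7 was at 294, 221 and 199 CPM. Within naive-like CD8 cells the intervals of highest and lowest library stood apart for 1 of 8 members, and within regulatory-like cells for 3 of 8. These subsets hold fewer UMIs than the T-like class, so their intervals are wider. In the CD8 gate it was 7 of 8 in CD44 high and 6 of 8 in CD44 low cells, with library 1 highest for all 8 members in both. In the CD4 gate it was 3 of 8 in CD44 high and 5 of 8 in CD44 low cells. Haemoglobin RNA, which T cells should lack, was at 945, 175 and 127 CPM in T-like cells, and the part of free RNA in these differences was not tested. In myeloid-like cells all 8 members were highest in library 3.

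Other gene lists were read by the same rule, and they were chosen with earlier results of these data known. Of reported GIMAP partners (Bcl2 relatives and autophagy proteins), 5 of 11 were higher in NK-like than in B-like cells and 0 lower, against 14% and 7.89% of all genes, namely Gabarapl1, Gabarapl2, Bcl2, Bcl2l1 and Bcl2l11, with a median log2 ratio of 0.53, against 0.10 over all genes. In memory-like over naive-like CD8 cells 2 of 9 were higher, the survival genes Bcl2 and Bcl2l1, and 0 lower, against 5.07% and 1.46% of genes. Elsewhere they went both ways, with 1 of 10 higher and 1 lower in T-like over B-like cells, 0 of 10 higher and 3 lower in T-like over NK-like cells, and 1 of 11 higher and 5 lower in T-like over myeloid-like cells. Of the other immune GTPases, which interferon induces, 9 of 14 were higher in T-like than in B-like cells and 0 lower, against 10.5% and 13.3% of genes. In memory-like over naive-like CD8 cells 0 of 14 were higher and 2 lower (Igtp and Tgtp2), with a median of −0.74, where the Gimap members had a median of 0.39. In regulatory-like over naive-like CD4 cells 8 of 15 were higher, Gbp2 and Gbp4 among them, and 0 lower, against 14.1% and 1.88% of genes. Naive and quiescence genes had 8 of 12 lower in regulatory-like over naive-like CD4 cells, among them Lef1 and Ccr7, and 4 of 12 lower in memory-like over naive-like CD8 cells, where Il7r was the 1 gene called higher. These subsets were named with several of those genes, so those counts describe the naming.

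The genes most like the summed family over 20 cell groups, by Pearson's r of log2(CPM + 1) among 11419 genes, were Cd2 (0.97), Ets1 (0.95), 4833403J16Rik (0.94), Ablim1 (0.94) and Gpr174 (0.93). Cd2 encodes an adhesion receptor of T and NK cells and Ets1 a lymphocyte transcription factor. Next came Nt5c3b, Elk4, Krba1 and Ptprcap, each at 0.93, and Zfp827 at 0.92. Krba1 lies 227 kb before the family on the same chromosome. The groups share libraries and depth, so these values are descriptions with no test. Between members, r over all 20 groups was 0.85 to 0.98 for the 28 pairs. Over the 13 lymphocyte groups it was −0.05 (Gimap1 with Gimap4) to 0.89 (Gimap6 with Gimap8), with a median of 0.66.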

How the data were processed

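The authors deposited 1 joint matrix of raw counts, RNA UMIs per gene and antibody tags per protein, that per the file header was made with Cell Ranger 5.0.1 (aggregation of 3 libraries, 3′ chemistry). The submitters' processing notes name mm10 and Seurat. The members and gene lists were chosen with earlier results of these data known. UMIs were summed per library and cell group and divided by the group's total to give CPM. Cells were clustered (2000 variable genes without the Gimap genes and listed GTPases, 20 components, 20 neighbours, Louvain at resolution 0.8) and named from marker lists, with a score of at least 0.5 and a lead of at least 0.3 for subsets, limits that were set after the counts were seen. A cluster with more leading genes of another type than of its own, or shallow with none of its own markers among its 10 leading genes, stayed unnamed, and the rule on NK receptor genes was set after the clusters were seen. A shallow cluster of 2874 cells (median 1177.5 UMIs) kept the name B-like, since Ebf1 was among its leading genes. Antibody gates were cut by Gaussian mixtures in each library, and NK-1.1 was not used because its mixture did not separate. Scrublet marked 469 cells (2.33%), which were kept in the main values and left out in an alternative, and the authors' limit of 5000 genes served the same end. The named genes are the 8 members, overlapping features and neighbours within 200 kb at 50 CPM or more in any class, with list genes given by counts. Counts under 3 were set to 3 before a ratio. Coordinates are from GENCODE on GRCm38, which matched 30934 of 31053 gene IDs (99.6%). The calling step was tested on simulated data. No group was compared, since the labels and the matrix do not link suffixes to groups. The comparisons with effector memory-like, follicular helper-like, T-like subclusters 7 and 8, B-like cluster 17, B1-like, marginal zone-like and plasma-like cells were added after values were seen. Tools were Python 3.11.15, numpy 2.4.6, scipy 1.17.1, scikit-learn 1.9.0, igraph 0.11.9, scanpy 1.11.5, and, for the scaling alternatives only, R 4.3.3 with edgeR 4.0.16 (TMM) and DESeq2 1.42.0 (size factors).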

Additional observations from a re-analysis of the deposited data

Results flagged for a closer look

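Gimap1 had ratios on opposite sides of 1 in the antibody gates when CD44 high were set over CD44 low cells. In the CD8 gate the ratio of CD44 high over CD44 low cells was below 1 in every library (0.859, 0.768 and 0.978), with a geometric mean of 0.864. In the CD4 gate it was above 1 in every library (1.05, 1.35 and 1.09), with a geometric mean of 1.16. The CD4 gate value was close to that of all genes there: its log2 ratio was 0.21, and the median over all genes compared was 0.18. TMM scaling shifted the members' ratios of that gate by a mean of −0.20 on the log2 scale. Library 1 of both gates held the haemoglobin RNA given above. Neither ratio met the 1.5-fold rule, and the difference between the gates was not tested.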

How the results depend on the processing

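No called member changed direction under any alternative run. Among members that were not called, mean ratios near 1 crossed to the other side of 1 under TMM or DESeq2 scaling, in T-like over B-like (Gimap5, Gimap6), T-like over NK-like (Gimap7), naive-like CD8 over CD4 and the CD8 gate (Gimap8), effector memory-like over memory-like CD8 (Gimap9), T-like subcluster 7 over naive-like CD8 (Gimap1), and follicular helper-like over naive-like CD4 and the CD4 gate (Gimap3, Gimap4 or Gimap6). For members that were called, 48 of 598 values under alternatives (8.03%) lost the call and 550 kept it, and for members that were not called, 20 of 1122 values gained one. The count of members called changed by more than 1.5 times as follows. With a 2-fold rule it was 1 for T-like over B-like (Gimap3), 0 for T-like over NK-like, 1 for memory-like over naive-like CD8 (Gimap4), 1 for regulatory-like over naive-like CD4 (Gimap7), 2 for effector memory-like over naive-like CD8, 1 for effector memory-like over memory-like CD8 (Gimap7) 1 for T-like subcluster 7 over naive-like CD8 and 1 for B-like cluster 17 over cluster 0 (Gimap7). With TMM scaling and with DESeq2 scaling it was 0 for T-like over NK-like, 1 for regulatory-like over naive-like CD4 and 2 for T-like subcluster 7 over naive-like CD8. At clustering resolution 1.2 it was 1 for regulatory-like over naive-like CD4 and 1 for memory-like over naive-like CD8 (Gimap4), with antibody gates in place of clusters 0 for memory-like over naive-like CD8, and with each cell weighted equally 1 for B-like cluster 17 over cluster 0. The cause of these changes was not tested.

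Leaving out 1 library, the count ranged from 1 to 2 for T-like over NK-like (2 without library 1 or library 2), 2 to 7 for regulatory-like over naive-like CD4, 0 to 1 for CD44 high over CD44 low in both the CD8 and the CD4 antibody gate (1 without library 1), 0 to 2 for follicular helper-like over naive-like CD4 (2 without library 1) and 0 to 1 for B1-like over B-like cluster 0 (Gimap4, without library 3). The summed member CPM ranged from 2375 to 2555 in T-like, 3087 to 3307 in NK-like, 1989 to 2068 in B-like and 259 to 395 in myeloid-like cells.

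In cells thinned to 1000 UMIs the summed member CPM was 2657 in T-like and 2110.4 in B-like cells. With mitochondrial, ribosomal, immunoglobulin and haemoglobin genes left out of the total it was 3879 in T-like, 4043 in NK-like, 2877 in B-like and 399 in myeloid-like cells. Without thinning, the share of cells with a member UMI was 99.7% in T-like, 99.6% in NK-like, 97.1% in B-like, 42.6% in myeloid-like, 35.9% in neutrophil-like and 30.6% in erythroid-like cells. Of the 10 genes most like the summed members, 1 was shared with the Spearman ranking, 5 with library 2 alone and 3 with library 3 alone. Ratios were taken between cell groups of the same library, and no paired test was run. No treatment or age group has more than 1 library. Depth limits the subsets most in library 3, with 18 effector memory-like and 25 memory-like CD8 cells.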

Other observations

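T-like subcluster 8 is described above with the T-like groups. Gimap3 was at 1256, 1107 and 1163 CPM there, and the neighbour gene Tmem176b at 316 CPM, against 15.4 CPM in T-like cells as a whole. With clusters at resolution 1.2, a cluster of 156 cells with many of the same leading genes was named by the NKT marker list, and a cluster of 69 cells led by Trdc by the gamma delta list.

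A cluster of cycling cells had 1458, 1075 and 1057 CPM of family RNA, below the CPM of T-like, NK-like and B-like cells of the same library. These cycling cells were deep, with a median of 13381 UMIs. The 121 cells held 1818 family UMIs, which per cell is above the 13.5 of T-like cells, so the order holds for CPM only. A cluster with markers of B and T cells, in which Scrublet marked 296 of 439 cells, had 2181 CPM pooled. Among neutrophil-like cells, a cluster led by granule genes, with 132 of its 134 cells in library 1, had 65.1 CPM in library 1, and the other cluster had 210.2, 597 and 636 CPM.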
